A study of Mus musculus with 16 samples.

Results

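The 9 imprinted genes of the mouse brain Peg3, Ndn, Snrpn, Nnat, Blcap, Nap1l5, Impact, Zdbf2 and Dlk1, were described in full-length RNA reads of cortex and striatum from R6/2 mice, a model of Huntington's disease, and non-transgenic (NT) mice. The 9 genes were taken by name from 24960 annotated genes, and 477 of their 545 listed isoforms had at least 1 read. There were 16 samples, 4 each of NT cortex, R6/2 cortex, NT striatum and R6/2 striatum. All mice were 3-month-old males, and each sample was labelled as cortex or striatum of the left hemisphere. The R6/2 mice carried a transgene expressing exon 1 of human HTT with an expanded CAG repeat, on a mixed B6CBA background, beside their own unaltered Htt genes. The labels did not say whether a cortical and a striatal sample with the same number came from the same mouse, so p-values measure the spread between these samples only.

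Imprinted genes are expressed mainly from the copy inherited from 1 parent, because DNA methylation laid down in the egg or sperm marks the copies of each parent differently. The genes described here are active mainly on the paternal copy in brain, with Blcap as a partial exception, since its imprinting there depends on the isoform. Many imprinted genes are abundant in neurons, and mice lacking some of them show altered growth, feeding or maternal behaviour.

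The labelled regions matched their defining markers. Summed reads of 10 markers of striatal projection neurons ran from 10181 to 13991 CPM, read counts scaled to a common library size, in NT striatum and from 381 to 475 CPM in NT cortex, and in R6/2 mice from 1918 to 3308 CPM in striatum and from 95.5 to 137 CPM in cortex. Total reads per sample ran from 252885 to 808814 in cortex and from 317050 to 1496196 in striatum. In striatum, 4 samples had 2 deposited count sets that were summed, NT samples 1 and 2 and R6/2 samples 2 and 3. These 4 samples had 0.368% to 0.767% mitochondrial reads and the other 4 striatal samples 1.22% to 2.63%, so the number of sets was kept as a term in striatal and regional fits. That term alone was past the threshold for 39.1% of all genes and for 5 of 8 tested imprinted genes, Peg3, Impact, Ndn, Nap1l5 and Blcap, each higher with 2 sets, beside a median log2 change of 0.23 over all genes. The NT striatal sample 3 stood apart in its choroid plexus and ependyma markers, at 9929 CPM summed over 8 genes against 298 to 479 CPM in the other NT striatal samples. In cortex the same sum was 1355 CPM in NT sample 4 and 1447 and 1849 CPM in R6/2 samples 2 and 3, against 152 to 229 CPM in the others.

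The neuronatin gene Nnat encodes a small membrane protein of the endoplasmic reticulum and lies on the plus strand at chr2:157560078-157562522 (mm10), inside an intron of Blcap on the opposite strand. Its main forms differ by exon 2, which is coding. The 3-exon isoform ENSMUST00000109526 includes it and encodes 81 codons, while the 2-exon isoform ENSMUST00000153739 skips it and encodes 54 codons.

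The gene Snrpn encodes SmN, a neuronal component of the spliceosome, from a transcript that also carries the Snurf reading frame, and it lies on the minus strand within chr7:59982495-60140219. Its annotated isoforms start far apart. ENSMUST00000059305 has 10 exons and starts at chr7:60005111, and ENSMUST00000098402 has 11 exons and starts at chr7:60140219. Over all samples the first held 16002 complete reads, meaning reads that covered a whole isoform, and the second 12. The 250 bases before the RefSeq starts nearest to each are shown (GRCm38.p6, minus strand, 5′ to 3′), the first at chr7:60005200-60005449 and the second at chr7:60140226-60140475, with CpG dinucleotides in capitals.
Snrpn, before the start with most reads: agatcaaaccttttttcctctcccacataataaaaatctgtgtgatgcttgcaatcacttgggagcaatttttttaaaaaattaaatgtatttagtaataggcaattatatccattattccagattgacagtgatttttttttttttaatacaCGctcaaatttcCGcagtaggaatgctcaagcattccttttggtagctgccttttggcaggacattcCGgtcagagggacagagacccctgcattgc
Snrpn, before the distant upstream start: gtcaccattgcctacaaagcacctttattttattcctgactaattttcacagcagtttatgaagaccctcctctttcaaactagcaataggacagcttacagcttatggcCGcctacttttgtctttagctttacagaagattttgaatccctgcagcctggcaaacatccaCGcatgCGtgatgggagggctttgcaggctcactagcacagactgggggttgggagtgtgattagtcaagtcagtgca
Both windows held 3 CpG dinucleotides, against a median of 6 over 32851 windows of that length. The hexamer TGCCGC, the core motif of the imprint-protecting factor ZFP57, was searched on both strands and had no match in either window, and 8.68% of all windows held a match. Impact was left out of this search. Of the 8 genes searched, Nap1l5 had 1 match and Zdbf2 had 3 before its upstream start, at chr1:63200108-63200357. At least 3 matches were found in 0.0731% of all windows. The hexamer itself contains a CpG, and this Zdbf2 window held 13 CpG dinucleotides, above the median. The other Zdbf2 window, at chr1:63273019-63273268, held 26 CpG dinucleotides and had 0 matches.

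Reads differed widely between the genes. Over all samples, the reads that entered the gene tests numbered 17721 for Snrpn, 7311 for Ndn, 6958 for Nap1l5, 1640 for Blcap, 1196 for Impact, 998 for Nnat, 269 for Peg3, 113 for Zdbf2 and 29 for Dlk1. The cDNA was amplified by PCR, so several reads can be copies of the same molecule, and these numbers are not divided by length. The test counts joined reads that matched a known isoform, covered part of 1 (ISM), joined known splice sites in a new way (NIC) or used a new splice site (NNC). They left out the genomic class, reads that TALON placed in a gene without fitting them to a spliced or annotated structure. That class held 58.5% of all Peg3 reads, 38.3% for Dlk1, 21.0% for Nnat, 19.9% for Zdbf2 and 0.0820% to 8.42% for the other genes, against 7.66% of all reads in the series.

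**Figure D1:**
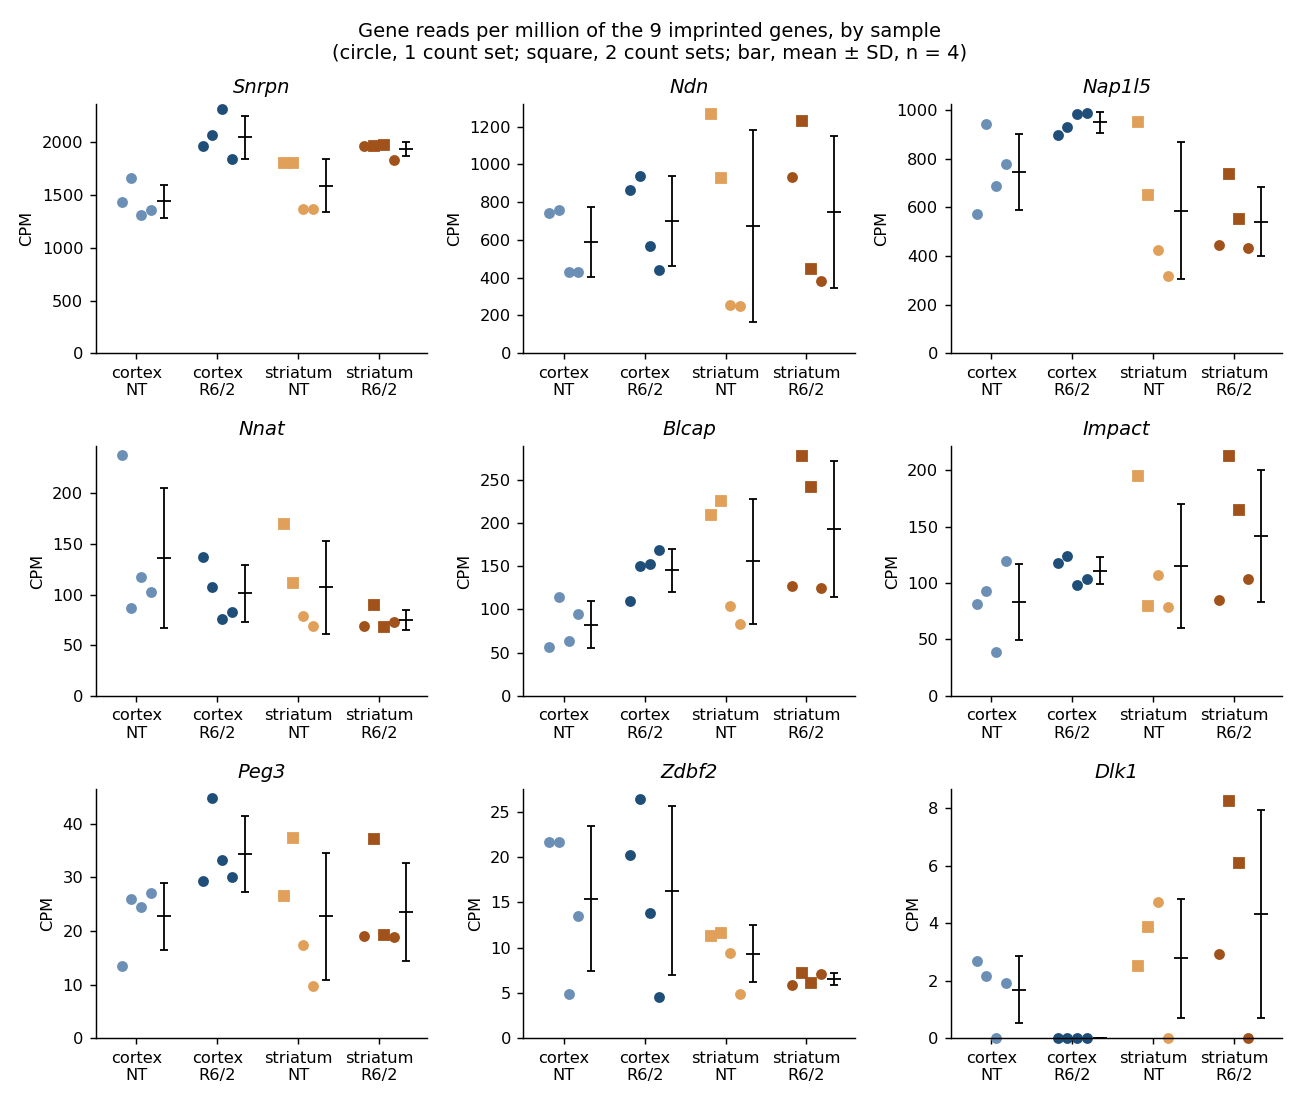
CPM of the 9 imprinted genes in each sample, with cortex in blue and striatum in orange, circles for samples with 1 count set, squares for 2 sets, and the mean ± SD of 4 samples beside them. Snrpn ran from 1312 to 1663 CPM in NT cortex and from 1845 to 2317 CPM in R6/2 cortex, while Ndn spanned 250 to 1266 CPM within NT striatum.

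The first question was whether these genes differed between R6/2 and NT mice. In cortex, 7 of the 9 genes passed the filter on low counts and none passed the adjusted threshold in edgeR's quasi-likelihood test, against 3.27% of 6121 genes. At an unadjusted p under 0.05 there were 2, Snrpn and Blcap, beside 1055 of the 6121 genes. DESeq2 called 1, Snrpn, beside 178 of the 6121 genes it fitted, not all of which received an adjusted p. Peg3 was among those without one. The fitted log2 fold changes of the 7 genes had a median of 0.36, and 6 were above 0, beside a median of 0.01 over all genes.

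Snrpn had 1434, 1663, 1312 and 1361 CPM in the 4 NT cortical samples and 1962, 2067, 2317 and 1845 CPM in the R6/2 samples. The genotypes did not overlap in cortex, with every R6/2 sample above every NT sample. The fitted log2 fold change was 0.52 ± 0.18 (SE), with an adjusted p of 0.14 in edgeR and 0.021 in DESeq2. In striatum, Snrpn had 1803, 1808, 1369 and 1370 CPM in NT and 1966, 1962, 1977 and 1835 CPM in R6/2 samples. The genotypes again did not overlap, and the fitted log2 fold change was 0.29 ± 0.16 (SE) with an adjusted p of 0.38. Within samples of 1 count set the NT mean was 1370 CPM and the R6/2 mean 1901 CPM, and within samples of 2 sets 1805 and 1969 CPM. Among 1315 genes with at least 20 reads in every sample, levels of the genotypes did not overlap for 12.5% in cortex, for 8.06% in striatum and, in the same direction, for 3.88% in both. Of the 9 imprinted genes, Snrpn, Ndn and Nap1l5 had that many reads, and 1 of these 3, Snrpn, did not overlap. Of the 51 genes in that last share, 4 were higher in R6/2 mice, Snrpn among them.

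Blcap, at chr2:157556362-157571274 on the minus strand, encodes a small protein linked to apoptosis whose mRNA is a known target of A-to-I editing. It had 56.7, 114, 63.4 and 94.5 CPM in NT cortex and 110, 150, 152 and 168 CPM in R6/2 cortex, so that 1 R6/2 sample lay below the highest NT sample. The fitted log2 fold change was 0.77 ± 0.22 (SE) with an adjusted p of 0.063, short of the threshold of 0.05. The adjusted p in edgeR was 0.049 with upper-quartile normalization, 0.019 without a filter on low counts, 0.038 with all 16 samples in 1 fit and 0.035 without NT cortical sample 2. It was called in 5 of 15 alternative fits, with adjusted p up to 0.16 and log2 fold changes from 0.61 to 0.98. In striatum Blcap had 209, 225, 104 and 83.2 CPM in NT and 127, 277, 242 and 125 CPM in R6/2 samples. The 2-set samples were the highest of each striatal group, and the fitted change was 0.30 ± 0.15 (SE) with an adjusted p of 0.32.

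Nnat, transcribed from within Blcap's intron, had 238, 86.4, 117 and 102 CPM in NT cortex and 138, 108, 76.2 and 83.0 CPM in R6/2 cortex, which overlapped. Striatal values were 170, 111, 78.9 and 68.5 CPM in NT and 68.6, 89.7, 67.8 and 73.1 CPM in R6/2 samples. The log2 fold change was -0.40 ± 0.28 (SE) in cortex, with an adjusted p of 0.49, and -0.54 ± 0.21 (SE) in striatum, with an adjusted p of 0.20. Without NT cortical sample 1, the highest, the cortical value was 0.03. In striatum the difference between genotypes lay in the 2-set samples, with means of 141 CPM in NT and 78.8 CPM in R6/2, against 73.7 and 70.9 CPM in the 1-set samples.

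The remaining genes gave no call between genotypes. In striatum, 0 of 7 tested genes passed the adjusted threshold in edgeR, against 4.34% of 7658 genes, with 1 gene, Nnat, at an unadjusted p under 0.05, beside 1352 of the 7658 genes, and 0 calls in DESeq2. Nap1l5, which encodes a nucleosome assembly protein-like factor without introns in its main form, had 573, 942, 688 and 777 CPM in NT cortex and 899, 933, 983 and 987 CPM in R6/2 cortex. Its log2 fold change was 0.36 ± 0.19 (SE) there and -0.06 ± 0.20 (SE) in striatum. Peg3, a zinc-finger transcription factor, had a log2 fold change of 0.58 ± 0.30 (SE) in cortex and -0.07 ± 0.30 (SE) in striatum. Impact, a regulator of the GCN2 stress kinase, had 0.33 ± 0.23 (SE) in cortex and 0.26 ± 0.26 (SE) in striatum. None of the region-by-genotype terms of 8 tested genes passed the adjusted threshold in edgeR or DESeq2, and 0 had an unadjusted p under 0.05, against 0.0406% of 7390 genes called.

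**Figure D2:**
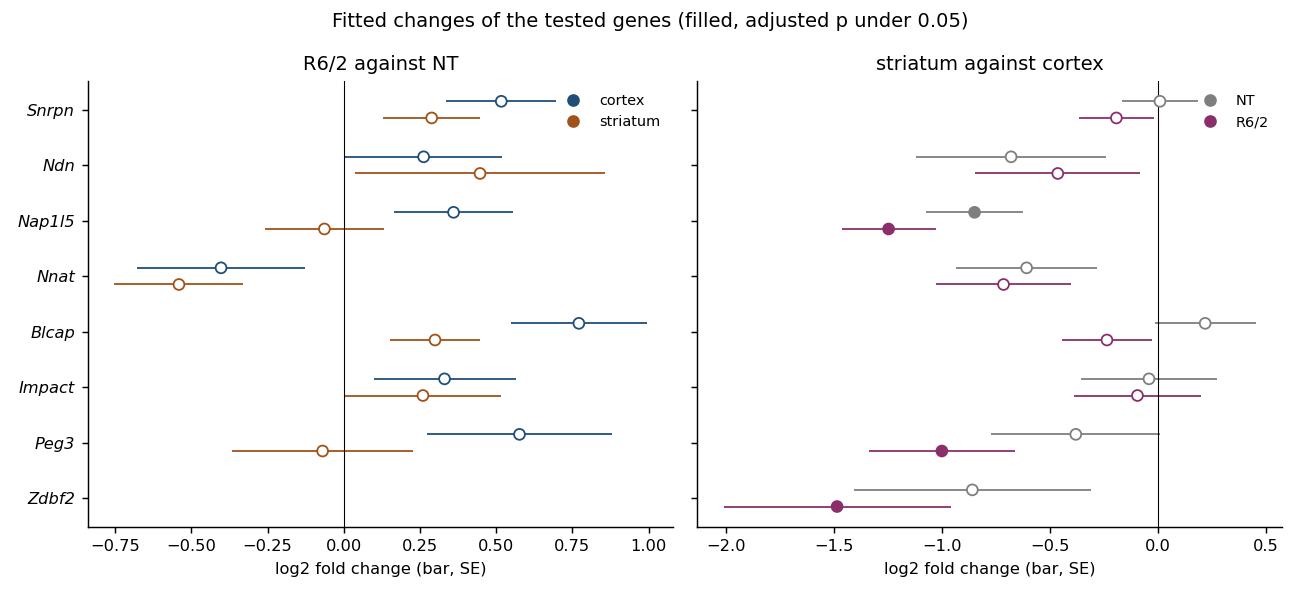
Fitted log2 fold changes (x axis) with SE for each tested gene, R6/2 against NT on the left and striatum against cortex on the right; filled points had an adjusted p under 0.05. No point is filled between genotypes, and between regions Nap1l5 is filled in both genotypes and Peg3 and Zdbf2 in R6/2 mice.

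Ligand and low-read genes were close to the limit of the reads. Dlk1 encodes a transmembrane and secreted relative of Notch ligands, and it had 3 reads over the 4 NT cortical samples, 0 in R6/2 cortex, 10 in NT striatum and 16 in R6/2 striatum. A count of 0 among 2100981 gene reads of R6/2 cortex allows a level of up to 1.43 CPM, which covers counting error only, and Dlk1 did not pass the filter on low counts. Without that filter it was called in no comparison, and its smallest adjusted p in edgeR was 0.063, between regions in R6/2 mice. Zdbf2, a zinc-finger gene at chr1:63273265-63314576, had 26, 36, 31 and 20 reads in NT cortex, R6/2 cortex, NT striatum and R6/2 striatum. Only 2 of its 85 complete reads matched an annotated isoform, ENSMUST00000029025 of 12112 nt. Another 67 reads were spread over 12 NIC isoforms of 457 to 3112 nt.

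Necdin is encoded by Ndn, a single-exon gene of the MAGE family at chr7:62346569-62350262, near Snrpn in the same imprinted cluster. All 7311 of its test reads matched ENSMUST00000038775. Its spread within groups was wide and followed the sample number. In NT cortex, samples 1 to 4 had 740, 758, 429 and 432 CPM, and in R6/2 cortex 866, 939, 566 and 438 CPM. In NT striatum they had 1266, 925, 256 and 250 CPM, and in R6/2 striatum 933, 1227, 446 and 382 CPM.

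Samples numbered 1 and 2 were thus above samples 3 and 4 in each of the 4 groups. Of 7390 genes, 3 had that order and 5 the reverse order in all groups, 0.108% in all, and of the imprinted genes Ndn was the only member. This order was noticed after the values were seen and is given without a test. The share of genes that random order would give was not computed, so 0.108% does not show that the order of Ndn is unusual. It did not follow the count sets alone, since R6/2 striatal sample 1, with 1 set, was high and sample 3, with 2 sets, was low. Between genotypes, the fitted log2 fold change of Ndn was 0.26 ± 0.26 (SE) in cortex and 0.45 ± 0.41 (SE) in striatum, with adjusted p of 0.66 and 0.65. The striatal value turned with the count sets, at 1.39 in the samples of 1 set, with means of 253 CPM in NT and 657 CPM in R6/2, and at -0.40 in those of 2 sets, with means of 1096 and 837 CPM. The ratio of Ndn to Snrpn reads was 0.52, 0.46, 0.33 and 0.32 in NT cortical samples 1 to 4 and 0.70, 0.51, 0.19 and 0.18 in NT striatal samples 1 to 4.

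**Figure D3:**
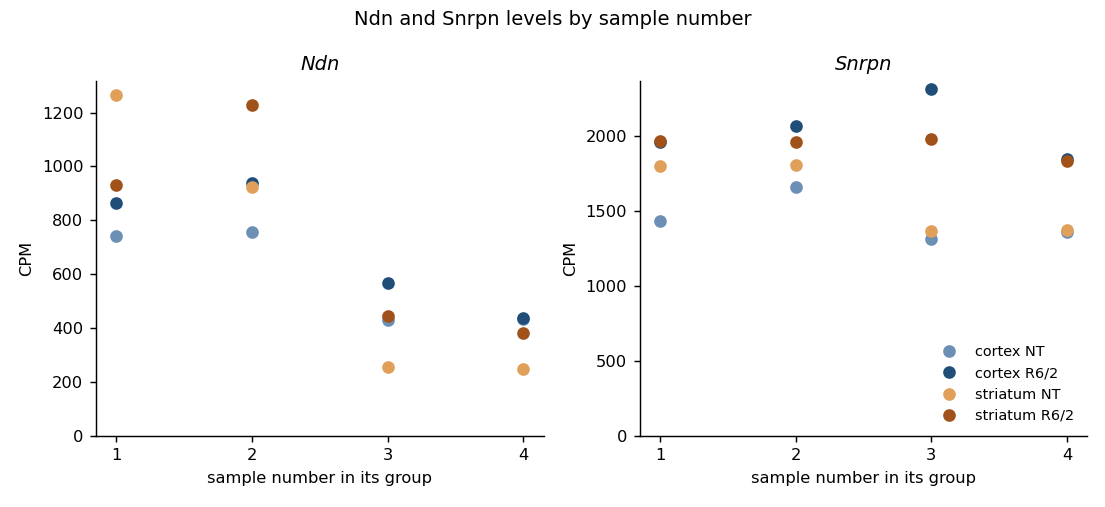
Ndn and Snrpn levels (y axis, CPM) against the number of each sample within its group (x axis), with a colour for each of the 4 groups. Ndn values of samples 1 and 2 lie between 740 and 1266 CPM and those of samples 3 and 4 between 250 and 566 CPM.

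The second question was how striatum and cortex differed. In NT mice 1 of 8 tested genes passed the adjusted threshold, against 33.4% of 7390 genes, and in R6/2 mice 3 of 8 did, against 27.3%. All 4 of these calls were lower in striatum. The 8 genes had a median log2 fold change of -0.49 in NT and -0.59 in R6/2 mice, beside -0.11 and -0.10 over all genes. Nap1l5 had a log2 fold change of -0.85 ± 0.23 (SE) in NT mice, with an adjusted p of 0.0057, and of -1.25 ± 0.22 (SE) in R6/2 mice, with an adjusted p of 0.00019. Its striatal values were 952, 652, 426 and 318 CPM in NT and 444, 740, 552 and 432 CPM in R6/2 samples. Every R6/2 striatal sample was below every R6/2 cortical sample, while the NT regions overlapped, with the 2-set striatal samples high. The share of all genes whose levels did not overlap between regions was not counted. Both calls were lost without the term for count sets, at log2 fold changes of -0.34 in NT and -0.81 in R6/2 mice, and with the first count set only, at -0.13 and -0.60. In the samples of 1 count set alone they were -0.99 and -1.11, with adjusted p of 0.0044 and 0.0026 in edgeR. That fit held 2 striatal samples per genotype, and every cortical sample had 1 set, so it largely repeats the comparison of the main fit. These striatal samples had 1.22% to 2.63% mitochondrial reads, against 0.27% to 0.49% in cortex. The part of this difference in the regional values was not tested. In NT mice the call was also lost without NT cortical sample 2, at -0.50, and without NT striatal sample 4, at -0.66.

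In R6/2 mice Peg3 had a log2 fold change of -1.0 ± 0.34 (SE) between regions, with an adjusted p of 0.030, and Zdbf2 one of -1.49 ± 0.53 (SE), with an adjusted p of 0.038. Peg3 had 29.3, 44.7, 33.3 and 30.0 CPM in R6/2 cortex and 19, 37.1, 19.2 and 18.9 CPM in R6/2 striatum, where sample 2 overlapped the cortical range. Zdbf2 had 20.2, 26.4, 13.9 and 4.61 CPM in R6/2 cortex and 5.84, 7.22, 6.07 and 7.08 CPM in R6/2 striatum, so cortical sample 4 lay below the striatal samples. Neither call held in DESeq2, where the adjusted p was 0.091 for Peg3 and 0.079 for Zdbf2. Without the term for count sets Peg3 was at -0.50 (adjusted p = 0.38 in edgeR), and with the genomic class added Zdbf2 was at -0.73 (adjusted p = 0.25 in edgeR). Peg3 lost its call without any 1 of 8 samples, NT striatal 2 and 3, R6/2 striatal 1 and 4, NT cortical 1 and 2 and R6/2 cortical 2 and 3. Over all 16 fits with a sample left out, its log2 fold change ran from -1.11 to -0.65. When each sample was left out in turn, Zdbf2 kept its call in 4 of 16 fits, those without NT striatal sample 1, NT cortical samples 3 or 4 or R6/2 cortical sample 4, and its log2 fold change ran from -1.75 to -1.0.

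Cell types differed between the regions beside these genes. Summed levels of 8 oligodendrocyte markers ran from 13451 to 31554 CPM in striatum and from 3758 to 7709 CPM in cortex, and 7 of 8 were higher in NT striatum and 8 of 8 in R6/2 striatum. Of 10 cortical excitatory neuron markers, 4 were tested, and 3 of these were lower in striatum in each genotype. Between genotypes, 8 of 10 striatal projection neuron markers were lower in R6/2 striatum. Of 6 astrocyte markers, 1 was lower in R6/2 mice in each region, and their summed level ran from 2157 to 3384 CPM in NT cortex and from 1246 to 1661 CPM in R6/2 cortex. Microglial markers ran from 181 to 429 CPM over all samples. The 10 hypothalamic neuropeptide markers were too low to test, with at most 11 reads of Avp and 10 of Trh in a cortical sample. Their summed level, of so few reads, ran from 34.6 to 48.8 CPM in NT and from 2.03 to 18.3 CPM in R6/2 cortex. In striatum it ran from 17.9 to 65.5 CPM in NT and from 6.07 to 20.6 CPM in R6/2 samples. The part of these cell types in the levels of the imprinted genes was not tested, and in bulk tissue fewer cells of a type and less RNA per cell cannot be told apart.

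Isoform use was examined next, since the study asked about splicing in these mice. ISM reads were left out here, and the rest (known, NIC, NNC) are called complete reads. For Snrpn, the main isoform ENSMUST00000059305 held 93.9, 94.3, 95.4 and 92.1% of complete reads in the NT cortical samples and 95.8, 96.3, 96.0 and 95.7% in the R6/2 cortical samples. Its mean share was 93.9% ± 1.4 (SD, n = 4) in NT and 95.9% ± 0.24 (SD, n = 4) in R6/2 cortex, a difference of 2.02 percentage points (two-sided exact permutation test, p = 0.0286, the smallest that 4 against 4 samples allow).

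In striatum the shares were 90.8, 90.6, 87.2 and 86.4% in NT and 91.7, 93.1, 91.4 and 93.4% in R6/2 samples. The means were 88.7% ± 2.3 and 92.4% ± 1.0 (SD, n = 4), a difference of 3.68 percentage points (exact permutation test, p = 0.0286). Genotypes did not overlap in either region, nor among striatal samples of 1 or of 2 count sets taken alone. Striatum was lower than cortex in NT mice by 5.18 percentage points (exact permutation test, p = 0.0286), again without overlap. How many other genes had main-isoform shares without overlap between regions was not counted. Among 920 genes with at least 2 isoforms and at least 20 complete reads in every sample, shares of the main known isoform did not overlap between genotypes for 7.93% in cortex, for 8.80% in striatum and, in the same direction, for 2.83% in both. Of the imprinted genes only Snrpn and Nap1l5 had that many reads, and neither overlapped in either region.

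The reads that moved were nearly all unannotated Snrpn isoforms. Those outside the main form made up 6.07% ± 1.4 (SD, n = 4) in NT cortex, 4.05% ± 0.24 in R6/2 cortex, 11.3% ± 2.3 in NT striatum and 7.58% ± 1.0 in R6/2 striatum. They were spread over 224 isoforms, of which 155 had 1 read, and 223 of the 224 were NIC or NNC. When the share was taken of known reads alone, the differences were -0.02 percentage points in cortex (exact permutation test, p = 1) and -0.02 in striatum (exact permutation test, p = 0.886). The main form held 16002 of the 16014 known reads, so this share could hardly differ between groups. With ISM reads in the denominator the cortical difference was 2.57 points (exact permutation test, p = 0.0571) and the striatal one 4.18 points (exact permutation test, p = 0.143). The files give the exon number and length of a unannotated isoform but not its exons.

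The most read unannotated form, the NNC isoform TALONT000638291 with 10 exons and 3547 nt, held 489 complete reads. Its share was 2.0, 1.5, 1.1 and 1.9% in NT cortex and 1.0, 1.2, 1.0 and 1.3% in R6/2 cortex. In striatum it was 3.8, 4.1, 6.9 and 6.6% in NT and 3.3, 2.7, 3.6 and 2.5% in R6/2 samples, so that every striatal sample was above every cortical sample. How many other isoforms had regions without overlap was not counted. In edgeR's test of isoform usage, its log2 change relative to the whole gene between striatum and cortex was 1.24 in NT and 1.15 in R6/2 mice.

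In the same edgeR test over whole genes, Snrpn was called between regions in NT mice (adjusted p = 0.016), the only call among 7 tested imprinted genes, against 0.372% of 5641 genes. In R6/2 mice it was again the only call of 7 (adjusted p = 0.032), against 0.496%. The NT call was lost without the term for count sets (adjusted p = 0.31), with a gene-level F test (adjusted p = 0.18), with a replicate block (adjusted p = 0.87), with known isoforms only and without any of NT cortical samples 2, 3 and 4 or NT striatal samples 3 and 4. In the samples of 1 count set alone, with 2 striatal samples per genotype, it stood at an adjusted p of 0.0026. Between genotypes, 0 of 5 tested imprinted genes were called in cortex, against 0.360% of 3058 genes, and 0 of 5 in striatum, against 0.451% of 4437 genes. Snrpn was the only gene at an unadjusted p under 0.05 in each of those tests, with an adjusted p of 0.10 in cortex and 0.32 in striatum, and in cortex the F test called it (adjusted p = 0.024), as did the test without NT cortical sample 3.

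Other rare Snrpn forms were singled out after their values were seen. TALONT000638297, an NNC isoform with 11 exons and 3344 nt, held 1.03% ± 0.30 (SD, n = 4) of complete reads in NT and 0.43% ± 0.09 in R6/2 cortex, and 0.88% ± 0.48 and 0.20% ± 0.13 in striatum. Its genotypes did not overlap in either region, from 1 to 14 reads per sample. How many other rare isoforms had genotypes without overlap was not counted. TALONT000638747, with 11 exons and 1501 nt, had 4, 7, 0 and 3 reads in NT cortex and 1, 1, 1 and 0 in R6/2 cortex, and 3, 7, 3 and 0 reads in NT striatum and 1, 0, 0 and 0 in R6/2 striatum.

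**Figure D4:**
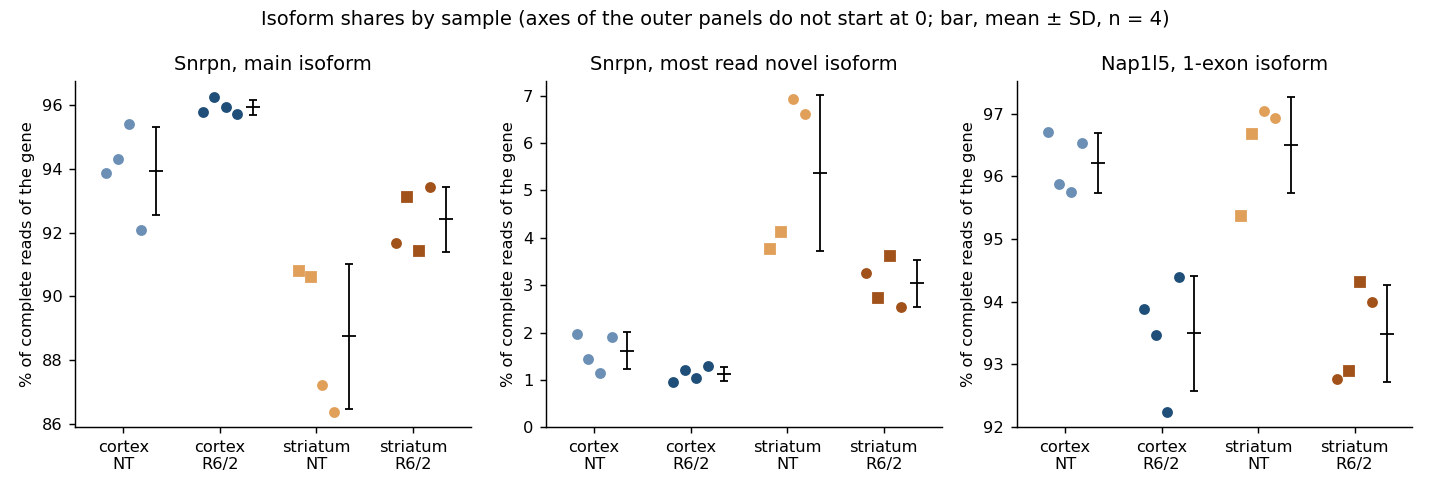
Shares of complete reads (y axis, %) held by the main Snrpn isoform, the most read unannotated Snrpn isoform and the 1-exon Nap1l5 isoform in each sample, with mean ± SD of 4 samples; squares had 2 count sets. The main Snrpn form lies between 92.1 and 95.4% in NT cortex and between 95.7 and 96.3% in R6/2 cortex, and the 1-exon Nap1l5 form is lower in every R6/2 sample than in any NT sample of its region.

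Nap1l5 lies on the minus strand at chr6:58905233-58907076, within the gene Herc3. Its 1-exon isoform ENSMUST00000059539 held 96.7, 95.9, 95.7 and 96.5% of complete reads in NT cortex and 93.9, 93.5, 92.2 and 94.4% in R6/2 cortex. Striatal shares were 95.4, 96.7, 97.0 and 96.9% in NT and 92.8, 92.9, 94.3 and 94.0% in R6/2 samples. The R6/2 samples were thus below the NT samples in both regions, a pattern shared in either direction by the 2.83% of genes given above and described here without a test.

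The other Nap1l5 reads belonged mostly to spliced forms with 2 exons. The NNC isoform TALONT000357446, of 1451 nt, held 1.77% ± 0.76 (SD, n = 4) in NT and 3.37% ± 0.63 in R6/2 cortex, and 2.48% ± 0.88 and 3.85% ± 0.60 in striatum. The annotated 2-exon isoform ENSMUST00000205101 held 1.90% ± 1.1 and 2.75% ± 0.78 in cortex and 0.93% ± 0.90 and 2.25% ± 0.53 in striatum. In edgeR's usage test Nap1l5 was not called between genotypes, with unadjusted p (Simes) of 0.15 in cortex and 0.26 in striatum.

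For Nnat, the 2-exon form held 533 complete reads over all samples and the 3-exon form 404, which is 43.1% of both together. The 2-exon form held 56.3, 55.0, 41.7 and 52.8% of complete reads in NT cortex and 49.3, 50.9, 59.3 and 61.1% in R6/2 cortex. In striatum it held 53.3, 56.6, 66.0 and 42.9% in NT and 51.1, 51.7, 50.0 and 38.7% in R6/2 samples, and all groups overlapped.

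The mean share of the 2-exon form differed between R6/2 and NT mice by 3.71 percentage points in cortex (exact permutation test, p = 0.457) and by -6.83 points in striatum (exact permutation test, p = 0.286). Between NT striatum and NT cortex the difference was 3.25 points (exact permutation test, p = 0.571). A sample held 14 to 143 complete Nnat reads, so single shares were imprecise and none of these differences was larger than the spread between samples. The share of 42.9% in NT striatal sample 4, of 14 reads, had a Wilson 95% interval of 21.4 to 67.4%, which covers counting error only. Without that sample, the striatal difference was -10.8 points (exact permutation test, p = 0.0286). Another form, ENSMUST00000173595, held 2.31% of complete reads.

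**Figure D5:**
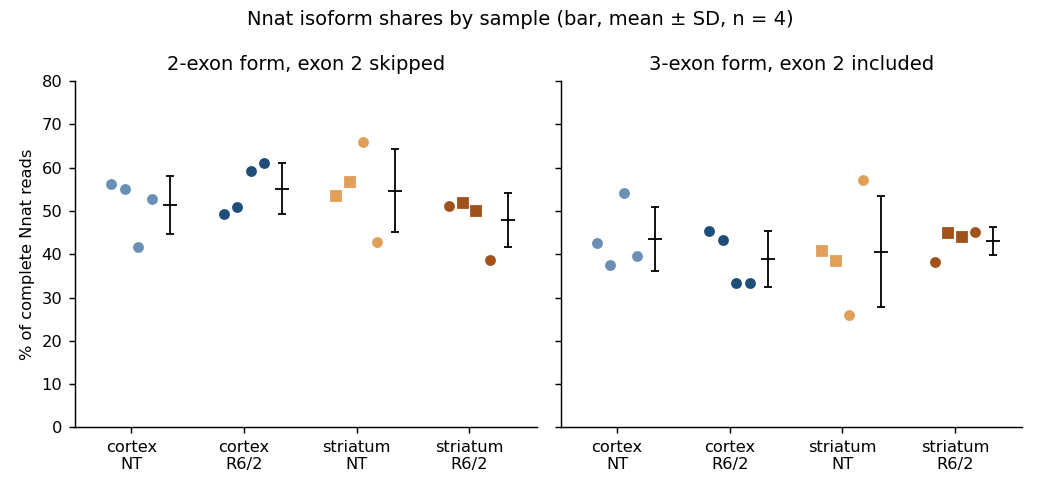
Shares of complete Nnat reads (y axis, %) held by the form that skips exon 2 and the form that includes it in each sample, with mean ± SD of 4 samples; squares had 2 count sets. The skipping form lies between 38.7 and 66.0% and the groups overlap.

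Blcap was read almost wholly as a single form. ENSMUST00000109528, with 2 exons, held 1582 of 1640 complete reads and ENSMUST00000088494, with a longer first exon, another 39. The share of the first was 98.0% ± 2.3 (SD, n = 4) in NT and 95.6% ± 2.9 in R6/2 cortex (exact permutation test, p = 0.229), and 95.1% ± 1.4 and 96.7% ± 1.1 in striatum (exact permutation test, p = 0.143). NT striatum and NT cortex differed by -2.90 points (exact permutation test, p = 0.114).

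For the other genes the known isoform with most reads was ENSMUST00000051209 for Peg3, with 190 of 255 complete reads and 8694 nt, and ENSMUST00000025290 for Impact, with 882 of 925. For Dlk1 it was ENSMUST00000109844, with 16 of 28 complete reads.

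A further 55 imprinted genes were listed by paternal or maternal expression. In cortex 1 of 19 tested was called, against 3.27% of all genes, and it was higher in R6/2 mice. This was Kcnq1ot1, a paternally expressed antisense RNA, with a log2 fold change of 1.15 ± 0.26 (SE) and an adjusted p of 0.016. In striatum 1 of 21 was called, against 4.34% of all genes, and it was lower in R6/2 mice. This was Ppp1r9a, a cytoskeletal scaffold of synapses, at -1.36 ± 0.21 (SE) and an adjusted p of 0.0023. Between striatum and cortex, 4 of 21 were higher and 3 lower in NT mice, against 33.4% of all genes called either way, and 3 higher and 2 lower in R6/2 mice, against 27.3%. Gnas, which encodes a stimulatory G protein, was lower in striatum by a log2 fold change of -2.70 ± 0.23 (SE) in NT and -2.15 ± 0.22 (SE) in R6/2 mice. Meg3, the maternally expressed RNA of the Dlk1 cluster, was also lower in both, at -0.74 ± 0.22 (SE) and -0.91 ± 0.22 (SE). In NT mice Cdkn1c was lower, at -1.98 ± 0.45 (SE), and Zrsr1 higher, at 1.34 ± 0.38 (SE). In R6/2 mice Peg13 and Commd1 were higher, at 1.30 ± 0.37 (SE) and 0.78 ± 0.24 (SE).

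Among 13 host and neighbour genes of the 9, 0 of 5 tested were called between genotypes in cortex and 0 of 4 in striatum. In the regional comparisons 4 of 5 were lower in NT striatum, against 33.4% of all genes called either way, and 3 of 5 in R6/2 striatum, against 27.3%. Herc3, the host of Nap1l5, was lower by -2.52 ± 0.36 (SE) on the log2 scale in NT and -2.26 ± 0.35 (SE) in R6/2 mice, the same direction as the gene inside it.

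As a description of likeness, the genes whose log2 CPM followed each imprinted gene most closely over the 16 samples were taken from 7390 genes. Pearson's r was highest for Blcap with B4galt3, at 0.95, and Arl8b, at 0.93, for Nap1l5 with Zwint, at 0.95, and Pfkp, at 0.94, and for Snrpn with Cadm3 and Srsf6, both at 0.92. Peg3 was closest to Prmt3, at 0.91, and Ttc13, at 0.90, Impact to Elp4 and Sf1, both at 0.89, and Zdbf2 to Calm3, at 0.88, and Ogfod2, at 0.82. Nnat was closest to Pnck, at 0.81, and Carmil2, at 0.80, and Ndn to Mif4gd, at 0.79, and Ipo7, at 0.78. These samples share regions, genotypes and count sets, which all enter r.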

How the data were processed

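Full-length cDNA of 16 samples of cortex and striatum (4 groups of 4) was read by PacBio Iso-seq. The authors made circular consensus reads, removed primers and poly(A) tails, aligned with minimap2 (version 2.17-r941, per the submitters' processing notes) to mm10, corrected reads with TranscriptClean and counted them with TALON. The deposited values were raw counts of reads per isoform without TALON's final filter, in 20 tables. The library protocol included PCR, so intervals and floors cover counting error only.

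Here both count sets of 4 striatal samples, which the labels call replicates, were summed and counted as 1 sample each. Known, ISM, NIC and NNC reads were summed per gene, filtered with filterByExpr, scaled by TMM and tested over all genes with edgeR 4.0.16 (quasi-likelihood, Benjamini-Hochberg adjustment, threshold 0.05) in R 4.3.3. Striatal and regional fits held a term for the number of count sets. Isoform usage was tested with diffSpliceDGE and Simes p-values for isoforms with at least 10 reads. Single shares were tested with two-sided exact permutation tests, and Wilson intervals were computed with scipy 1.17.1. Scripts were tested on simulated data. A log2 change of 1 was recovered for 79.6% of changed genes in cortex, 57.7% in striatum and 35.4% with all samples. False calls made up 4.24%, 10% and 4.51% of the calls. The usage test recovered 15.9%, 18.5% and 5.98% of genes with an isoform changed by a log2 of 2. A gene that was not called may thus still differ. Alternatives were DESeq2 1.42.0, other filters, normalization, read classes and designs, and leaving out each sample. Using only samples of 1 count set was added after seeing the data. The genes and lists were chosen with earlier results of these data known. Named were all 9 genes, isoforms of Nnat, Snrpn and Blcap with at least 2% of complete reads, the known isoform with most reads of the others, at most 4 called other imprinted genes of smallest adjusted p per comparison, and the 2 most alike genes. Herc3 and all further isoforms were singled out after their values were seen.

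Positions are from GENCODE M21 (mm10), and windows before gene starts from RefSeq on GRCm38.p6. The sequence of Nnat is not reported here.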

Additional observations from a re-analysis of the deposited data

Results flagged for a closer look

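In 4 of 60 groups of 4 samples, 1 sample lay far from the others, where chance gives about 1 in 20 groups. Peg3 stood at 37.1 CPM in R6/2 striatal sample 2, which had 2 count sets, against 18.9 to 19.2 CPM in the other R6/2 striatal samples. Snrpn stood at 1835 CPM in R6/2 striatal sample 4, against 1962 to 1977 CPM in the others, still above every NT striatal sample.

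For Nnat the same R6/2 striatal sample 4 held 38.7% of complete reads in the 2-exon form, against 50.0 to 51.7% in the others. Its share of ENSMUST00000173595 was 9.68%, against 1.52 to 2.30% in the others, from 3 of 31 complete reads.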

How the results depend on the processing

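In cortex between genotypes the number of imprinted genes called was 1 with upper-quartile normalization, DESeq2, no filter on low counts or all 16 samples in 1 fit, in place of 0, and 0 to 1 when a sample was left out. Between regions in NT mice it was 0 with no filter, the first count set only or no term for count sets, 2 in samples of 1 count set alone (Nap1l5 and Ndn), and 0 to 2 when a sample was left out. In R6/2 mice the 3 calls became 1 with DESeq2, no filter, ISM reads left out or samples of 1 count set alone, 0 with the first count set only or no term for count sets, and 1 to 3 when a sample was left out. Isoform usage gave 1 call in cortex with the F test and 0 to 1 when a sample was left out, and between regions in NT mice 0 with the F test, known isoforms only or no term for count sets, and 0 to 1 when a sample was left out. The cause of these changes was not tested. DESeq2 moved the median regional log2 fold change of all genes from -0.11 to -0.02 in NT and from -0.10 to 0.01 in R6/2 mice.

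The Snrpn share differences were 2.57, 4.18 and -5.71 points with ISM reads in the denominator (cortex, striatum, NT regions) and, of known reads only, -0.0214, -0.0192 and 0.0208 points. With a sample left out they ran from 1.41 to 2.51, 2.89 to 4.36 and -5.86 to -4.39 points, with exact permutation p up to 0.0571, 0.0857 and 0.0571. The Nnat differences ran from 0.44 to 5.65, -10.8 to -3.07 and -0.51 to 7.20 points, the last turning to -0.0089 without NT cortical sample 3 and -0.51 without NT striatal sample 3. The Blcap differences ran from -3.34 to -1.21, 1.19 to 2.21 and -3.60 to -2.24 points.

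The labels do not say whether equal sample numbers mark the same mouse. Deviations of same-numbered samples from their group means were correlated. Between cortex and striatum, r was over 0.1 in 2 of 4 pairs in NT and 3 of 4 in R6/2 mice. Between NT and R6/2 samples, which cannot be the same mouse, it was over 0.1 in 2 of 4 pairs in each region. So few pairs cannot decide whether the regions came from the same mice. The samples were not treated as paired, although Ndn followed the numbers. With a replicate block 1 imprinted gene (Blcap) was called in cortex, 1 between regions in R6/2 mice and 0 in regional isoform usage in NT mice. The Peg3 and Zdbf2 calls were lost (adjusted p = 0.094 and 0.29 in edgeR), and the Snrpn share differences of 2.02, 3.68 and -5.18 points had an exact permutation p of 0.125, the smallest that 4 pairs allow. Over all genes the striatal genotype calls numbered 332, and 185 with the block, 606 with no filter, 39 with no term for count sets and 20 with the first count set only. Cortical calls numbered 200, and 95 with ISM reads left out. Regional calls numbered 2467 in NT and 2014 in R6/2 mice, and 932 and 713 with the first count set only and 1101 and 840 with no term for count sets. Low reads of Peg3, Zdbf2, Nnat and Dlk1 limited what could be seen.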
